A study of Homo sapiens with 6 samples.

Results

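Transcripts of the YAP and TEAD pathway and of THBS1 were measured in HCT116 cells whose labels give miR-196b overexpression (3 arrays), and in HCT116 cells that carried an empty vector (3 arrays). The set was 10 listed genes: THBS1, CYR61 (now CCN1), CTGF (now CCN2), ANKRD1, AMOTL2, LATS2, YAP1, WWTR1, TEAD1 and TEAD4. Members were taken as the probe sets that the platform annotation pairs with these genes, which gave 10 probe sets of 8 genes among 16098 named probe sets of 14884 genes. CCN2 and YAP1 had 2 probe sets each. CCN1 and LATS2 had no probe set named in that annotation and were not analysed here.

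HCT116 is an established human colorectal carcinoma line. Both groups were stably transduced, one for the microRNA and the other with the empty vector, so that transduction was common to all arrays. The labels give neither the promoter of the vector nor whether the cells were a pool or 1 clone. They do not say whether the 3 replicates of a group came from separate transductions. The p-values therefore cover only the spread among the arrays at hand. Titles spell the line and the microRNA differently from the other labels, and the groups were read from titles and genotype fields, which divide the arrays in the same way.

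YAP1 and its paralogue TAZ, which the gene WWTR1 encodes, are transcriptional coactivators that bind DNA through the TEAD factors. The kinases LATS1 and LATS2 of the Hippo cascade phosphorylate both and hold them out of the nucleus, and angiomotins such as AMOTL2 bind them at cell junctions. When YAP and TAZ are nuclear, TEAD-bound promoters drive genes such as CCN1, CCN2 and ANKRD1, and also LATS2 and AMOTL2, which feed back on the pathway. THBS1 encodes thrombospondin-1, a secreted matrix glycoprotein that blocks the growth of vessels, acts on cell adhesion and can activate latent TGF-beta.

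The microRNA of the study is shown first, because its seed defines which transcripts it can pair with. Mature sequences were taken from RefSeq (GRCh38.p14), with the seed at bases 2 to 8 in capitals. miR-196a-5p is shown because its gene MIR196A2 had the largest difference of all named probe sets on these arrays, and let-7a-5p because it holds the same letters 1 base further in.
hsa-miR-196b-5p: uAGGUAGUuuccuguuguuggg
hsa-miR-196a-5p: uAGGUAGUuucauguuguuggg
hsa-let-7a-5p: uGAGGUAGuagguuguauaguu
The miR-196 forms share 1 seed and differ at 1 base of 22, A12C, written with the base of miR-196a-5p first and counted from the 5′ end. The letters of the miR-196 seed stand at bases 3 to 9 of let-7a-5p, outside its own seed register by 1 base. No 3′ UTR sequence was used here, so no target site was searched in THBS1 or in any other member.

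Promoters of 3 members are shown because they carry the letters that TEAD factors read and because their genes gave different values. Each is the 250 bases before the annotated start of the gene, from RefSeq (GRCh38.p14), written 5′ to 3′ on the gene's strand, with every GGAATG, searched on both strands, in capitals. The THBS1 window is chr15:39580829-39581078 on the plus strand, the CCN2 window chr6:131951373-131951622 on the minus strand and the ANKRD1 window chr10:90921088-90921337 on the minus strand.
THBS1 promoter: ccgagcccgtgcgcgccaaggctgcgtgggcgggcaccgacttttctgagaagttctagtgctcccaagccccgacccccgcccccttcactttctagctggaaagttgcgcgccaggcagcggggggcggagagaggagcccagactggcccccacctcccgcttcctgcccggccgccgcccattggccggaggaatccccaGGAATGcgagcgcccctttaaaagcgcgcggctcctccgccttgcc
CCN2 promoter: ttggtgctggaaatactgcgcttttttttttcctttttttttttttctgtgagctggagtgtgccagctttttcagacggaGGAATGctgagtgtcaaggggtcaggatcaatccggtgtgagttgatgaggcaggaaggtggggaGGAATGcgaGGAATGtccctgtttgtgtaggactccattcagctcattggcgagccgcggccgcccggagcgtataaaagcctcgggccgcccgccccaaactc
ANKRD1 promoter: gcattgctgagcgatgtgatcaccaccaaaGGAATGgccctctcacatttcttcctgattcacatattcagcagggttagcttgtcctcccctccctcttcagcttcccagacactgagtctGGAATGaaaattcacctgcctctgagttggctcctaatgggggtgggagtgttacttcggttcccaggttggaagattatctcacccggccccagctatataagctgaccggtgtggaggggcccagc
The THBS1 window held 1 match, at 46 to 41 bases before the start. The CCN2 window held 3, at 169 to 164, 104 to 99 and 95 to 90 bases before the start. The ANKRD1 window held 2, at 220 to 215 and 128 to 123 bases before the start. Of 35116 promoter windows of the same length, 11.9% held at least 1 match, 0.94% at least 2 and 0.0826% at least 3.

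Among the other members with a promoter entry, YAP1 had 1 match at 162 to 157 bases before its start. AMOTL2 had 1, on the opposite strand, before 1 of its 2 annotated starts, at 69 to 64 bases. LATS2 and both starts of WWTR1 had 0 matches in these windows. TGANTCA, a loose form of the AP-1 motif with any base at N, reads the same on both strands as a pattern. It stood in the ANKRD1 window, as TGATTCA, at 195 to 189 bases before the start, clear of both TEAD matches. The loose form stood in 6.57% of all windows. CCN1, TEAD1 and TEAD4 are named only. A match is a run of letters and was not tested for binding, and letters missing from these windows may stand elsewhere.

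**Figure D1:**
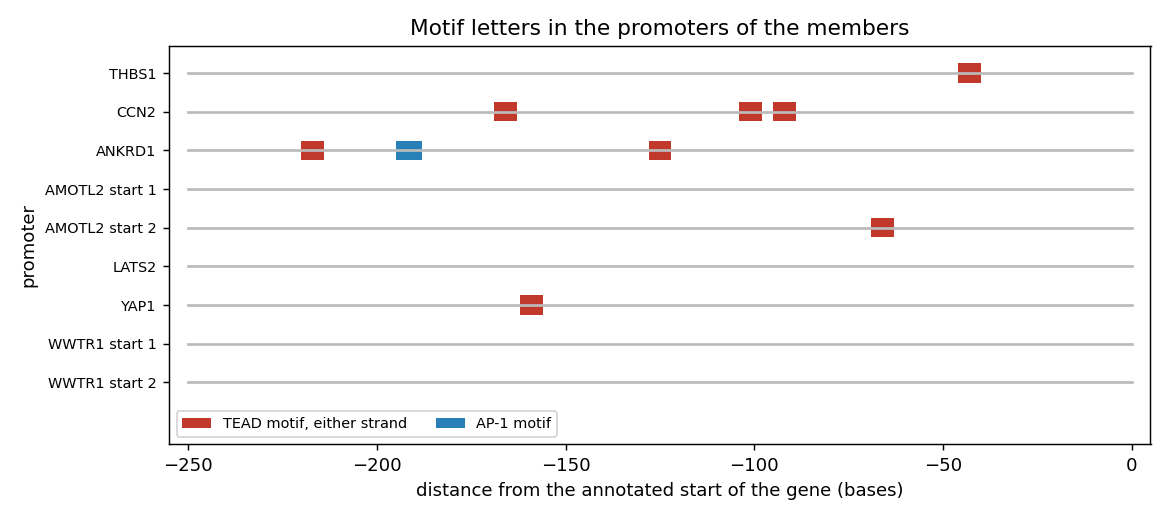
Matches to the TEAD letters (red) and to the loose AP-1 letters TGANTCA (blue) along the 250 bases before each annotated start. The horizontal axis gives the distance from the start in bases, with 1 line per promoter. CCN2 holds 3 TEAD matches and ANKRD1 holds 2, while THBS1, YAP1 and 1 start of AMOTL2 hold 1 each.

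The values are deposited log2 values, 1 per probe set and array, and a difference of 1 is a 2-fold difference in signal. Because each probe set has its own probes, levels were compared between arrays and not between genes. Changes are miR-196b minus control from a limma fit over all 16098 named probe sets, with Benjamini-Hochberg adjustment of p-values over all of them and a threshold of 0.05. By that rule 9 probe sets of the array were called, 0.0559% of those tested. Of the 10 member probe sets 0 were called (limma adjusted p = 0.251 to 0.87). At an unadjusted p below 0.05, limma picked 3 of the 10, with 2 higher and 1 lower, against 9.87% of all named probe sets. Those same 3, WWTR1, TEAD1 and THBS1, were the members whose groups did not overlap. That held for 17.2% of all named probe sets, 10% on the higher and 7.18% on the lower side. With 3 against 3 arrays, an exact two-sided permutation test cannot give a p below 0.1, and all 3 reached that value.

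The arrays had similar medians, from 4.34 to 4.37, and correlated at r = 0.988 to 0.992 across 53617 probe sets, none of which is an independent replicate. The probe set of MIR196B itself had a log2 change of 0.08 (95% interval -0.16 to 0.31), while that of MIR196A2 rose by 7.55 (limma adjusted p = 4.53e-07). Both probe sets read precursor RNA and give no level of the mature microRNA. GALNT5 and HOXB7, also part of the check of the labels, had log2 changes of -1.09 and -0.64 (limma adjusted p = 0.0233 and 0.0974). Because the labelled gene's own probe set did not show the label, directions are those of arrays labelled miR-196b. Of 8 epithelial marker probe sets, 0 lay in the dimmest 40% of named probe sets, with a mean over the list of 9.17 to 9.25 in miR-196b arrays and 9.20 to 9.26 in control arrays. All 3 endothelial and 2 of 3 fibroblast marker probe sets lay in that dim part. The fibroblast list averaged 3.06 to 3.22 in miR-196b arrays and 3.08 to 3.20 in control arrays, and the endothelial list 3.62 to 3.63 in miR-196b arrays and 3.54 to 3.81 in control arrays. The blood cell list, of CD68 and CSF1R, averaged 5.75 to 6.11 in miR-196b arrays and 5.83 to 5.89 in control arrays. CSF1R lay in the dimmest 40% and CD68 did not. Their log2 changes were 0.31 for CSF1R, without overlap, and -0.20 for CD68 (limma adjusted p = 0.476 and 0.669). Measured were 2 of 6 listed blood cell genes, 3 of 7 fibroblast, 3 of 5 endothelial and 7 of 8 epithelial genes.

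THBS1 had the smallest p and the largest absolute change of the members. Its level was 6.84, 6.90 and 7.01 in the miR-196b arrays, against 7.35, 7.49 and 7.33 in the control arrays (log2). Every miR-196b array lay below every control array. The means were 6.92 ± 0.0858 in miR-196b arrays and 7.39 ± 0.0861 in control arrays (log2, SD, n = 3 each). The log2 change was -0.48 with an SE of 0.08 and a 95% interval of -0.67 to -0.28, or 1.39-fold lower, and it did not pass over all genes (limma adjusted p = 0.251). Ordered by p, THBS1 stood at place 40 of the 16098 named probe sets. With a trended and robust variance prior, under which 0.565% of named probe sets were called, THBS1 passed (limma adjusted p = 0.0233), and its adjusted p ran from 0.0233 to 0.548 over the alternatives. In bulk RNA, a lower level in every cell and a lower share of cells with the transcript cannot be told apart.

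YAP1, the first of the coactivators, was read by 2 probe sets annotated to the same gene. At probe set 16730503 it was at 8.76, 8.93 and 9.07 in miR-196b arrays, against 8.88, 8.79 and 8.83 in control arrays (log2). The miR-196b arrays lay on both sides of the control arrays. At probe set 16743628, which lay in the dimmest 40%, it was at 4.64, 4.90 and 4.45 in miR-196b arrays, against 4.59, 5.10 and 5.07 in control arrays (log2), and the groups overlapped again. The log2 changes were 0.09 (95% interval -0.14 to 0.31, limma adjusted p = 0.791) and -0.26 (-0.65 to 0.14, limma adjusted p = 0.642). The probe sets thus differed in sign and neither passed.

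WWTR1, the gene of TAZ, was at 7.43, 7.25 and 7.47 in miR-196b arrays, against 7.04, 7.01 and 7.14 in control arrays (log2). All miR-196b arrays lay above all control arrays. The means were 7.39 ± 0.117 in miR-196b arrays and 7.06 ± 0.0656 in control arrays (log2, SD, n = 3 each). The log2 change of 0.32 (SE 0.09, 95% interval 0.12 to 0.53), or 1.25-fold higher, did not pass over all genes (limma adjusted p = 0.36).

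TEAD1, a DNA-binding partner of YAP and TAZ, was at 9.39, 9.40 and 9.52 in miR-196b arrays, against 9.17, 9.18 and 9.24 in control arrays (log2). The groups did not overlap, with the miR-196b arrays on the higher side. The log2 change was 0.24 (SE 0.07, 95% interval 0.07 to 0.41), or 1.18-fold higher (limma adjusted p = 0.407). TEAD4, its paralogue, was at 8.08, 7.94 and 7.84 in miR-196b arrays, against 8.03, 8.05 and 8.004 in control arrays (log2). Its miR-196b arrays reached both above and below the control arrays, and the log2 change was -0.08 (95% interval -0.27 to 0.12, limma adjusted p = 0.786).

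The other TEAD genes are paralogues of these. TEAD2 was at 8.26, 8.19 and 8.28 in miR-196b arrays, against 7.91, 8.12 and 7.91 in control arrays (log2), without overlap. Its log2 change was 0.26 (95% interval 0.06 to 0.47, limma adjusted p = 0.426). TEAD3 had a log2 change of 0.0063 (95% interval -0.18 to 0.20), and its sign turned with a repeated quantile normalization (-0.0063). Of the VGLL cofactors, which compete with YAP and TAZ for TEAD factors, VGLL4 had a log2 change of 0.05 and VGLL2 of -0.17. VGLL1, VGLL2 and VGLL3 lay in the dimmest 40%. Of the 8 TEAD and VGLL probe sets 0 were called, 4 were higher and 4 lower, and the median log2 change was -0.01 beside 0.0069 over all named probe sets.

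**Figure D2:**
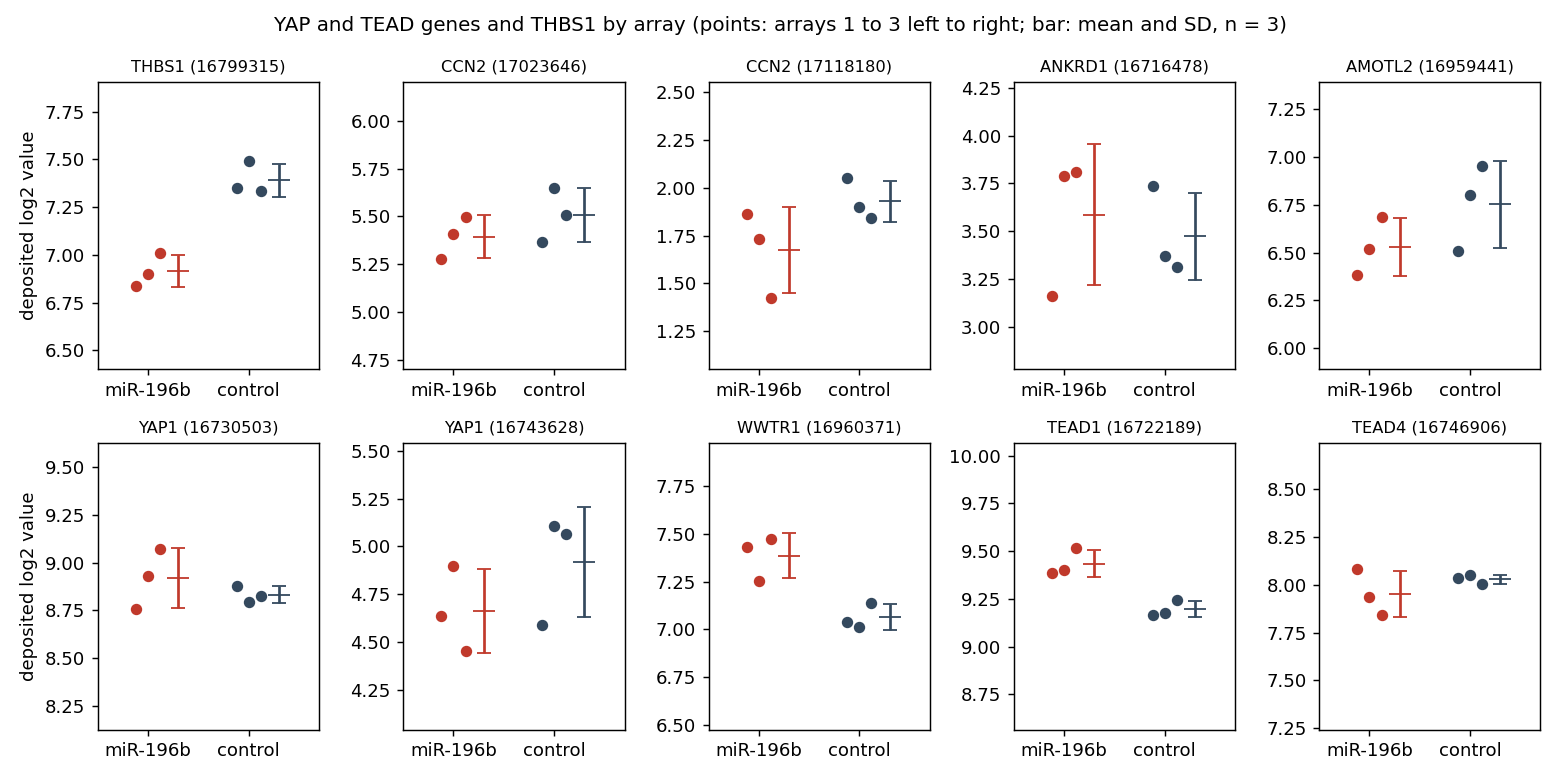
Deposited log2 values of the 10 member probe sets (vertical axes, all of the same span), with the 3 miR-196b arrays in red on the left and the 3 control arrays in dark blue on the right of each panel; bars give mean and SD (n = 3). The groups are apart for THBS1 (lower in miR-196b), WWTR1 and TEAD1 (both higher) and overlap in the other 7 panels.

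The established outputs of YAP and TEAD did not pass the test. CCN2, a matricellular protein induced through TEAD sites, was at 5.28, 5.41 and 5.497 in miR-196b arrays, against 5.37, 5.65 and 5.51 in control arrays at probe set 17023646 (log2). These overlap, and the log2 change was -0.11 (95% interval -0.35 to 0.12, limma adjusted p = 0.733). Its other probe set, 17118180, lay in the dimmest 40%, at 1.86, 1.73 and 1.42 in miR-196b arrays and 2.05, 1.90 and 1.84 in control arrays (log2). There the log2 change was -0.26 (95% interval -0.55 to 0.04, limma adjusted p = 0.545), with 1 miR-196b array above 1 control array.

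ANKRD1, a nuclear ankyrin-repeat protein often used as a reporter of YAP activity, was at 3.16, 3.79 and 3.81 in miR-196b arrays, against 3.74, 3.37 and 3.31 in control arrays (log2). It lay in the dimmest 40% and had the largest SE of the members, with an SD of 0.369 in miR-196b arrays and 0.229 in control arrays. Of the miR-196b arrays, 1 lay below all control arrays and 2 lay above them. The log2 change of 0.11 had a 95% interval of -0.35 to 0.58 (limma adjusted p = 0.87).

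AMOTL2, a junctional scaffold that binds YAP, was at 6.39, 6.52 and 6.69 in miR-196b arrays, against 6.51, 6.80 and 6.95 in control arrays (log2). The groups overlapped, since the lowest control array lay below 2 of the miR-196b arrays. The log2 change was -0.22 (SE 0.13, 95% interval -0.54 to 0.09, limma adjusted p = 0.612). Its paralogue AMOT was at 5.62, 5.87 and 5.55 in miR-196b arrays, against 5.19, 5.45 and 5.25 in control arrays (log2). These groups did not overlap, and the log2 change was 0.38 (95% interval 0.12 to 0.65, limma adjusted p = 0.395). The 2 probe sets of AMOTL1 gave log2 changes of 0.12 and, in the dimmest 40%, -0.04.

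**Figure D3:**
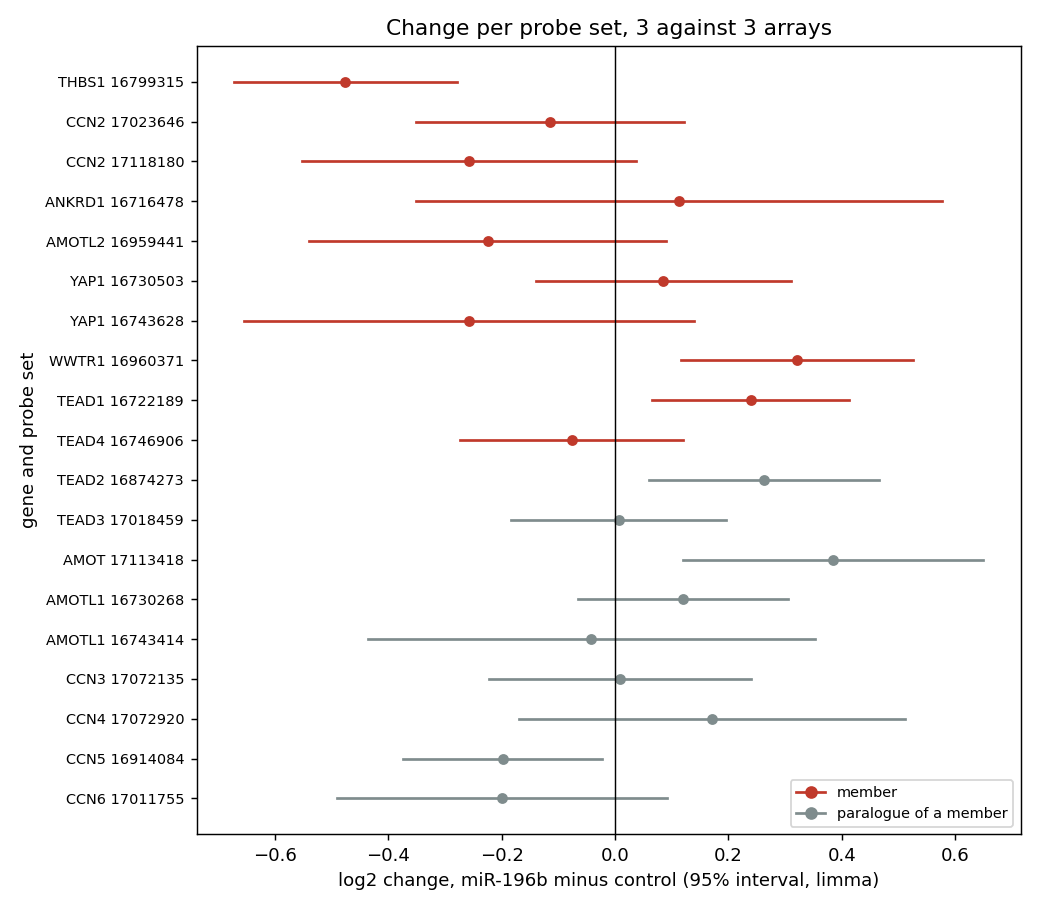
Log2 change of each member probe set (red) and of the measured TEAD, AMOT and CCN paralogues (grey), miR-196b minus control. The horizontal axis gives the change with its 95% interval from limma, with 1 row per probe set. The interval of THBS1 (-0.67 to -0.28) lies below 0, those of WWTR1 and TEAD1 lie above 0, and those of CCN2, ANKRD1, AMOTL2, YAP1 and TEAD4 include 0.

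A wider list of 28 reported YAP and TAZ target genes had 15 genes with 16 probe sets on the array. Of these 0 were called, 5 were higher and 11 lower in miR-196b arrays, and the median log2 change was -0.12, beside 0.0069 over all named probe sets. At an unadjusted p below 0.05, 4 were lower and 0 higher, where 4.14% of all named probe sets were lower and 5.73% higher by that rule. In 4 the groups did not overlap, all 4 on the lower side, where 7.18% of all named probe sets did so. Without CCN2, ANKRD1 and AMOTL2, the 12 probe sets left had a median of -0.12, with 4 higher and 8 lower.

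DOCK5, an exchange factor for the GTPase Rac, had the smallest p of the target list. It was at 8.97, 9.09 and 8.93 in miR-196b arrays, against 9.37, 9.39 and 9.39 in control arrays (log2). The groups did not overlap, and the log2 change was -0.38 (SE 0.07, 95% interval -0.56 to -0.21), which did not pass (limma adjusted p = 0.27). It passed with a trended, robust variance prior (limma adjusted p = 0.00773), and its adjusted p ran from 0.00773 to 0.552 over the alternatives.

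AJUBA, a LIM protein that inhibits LATS kinases, was at 5.85, 6.03 and 5.97 in miR-196b arrays, against 6.17, 6.08 and 6.18 in control arrays (log2), a log2 change of -0.20 without overlap (limma adjusted p = 0.486). EDN1, the vasoconstrictor peptide endothelin-1, was at 4.39, 4.07 and 4.24 in miR-196b arrays, against 4.46, 4.54 and 4.42 in control arrays (log2), a log2 change of -0.24 without overlap (limma adjusted p = 0.498), and lay in the dimmest 40%. FJX1, a secreted and Golgi protein related to the fly regulator four-jointed, was at 7.58, 7.48 and 7.42 in miR-196b arrays, against 7.80, 7.83 and 7.56 in control arrays (log2). Its groups overlapped, and its log2 change was -0.24 (limma adjusted p = 0.49). These are the genes with the smallest p of the list, and none passed over all genes.

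The Hippo cascade and its upstream regulators, a list of 26 genes, had 21 on the array with 24 probe sets. Of these 0 were called, 14 were higher and 10 lower, and the median log2 change was 0.04. At an unadjusted p below 0.05, 2 of the 24 were higher and 1 lower, where 5.73% of all named probe sets were higher and 4.14% lower by that rule. The groups did not overlap in 5 probe sets on the higher side and in 4 on the lower side, where 10% and 7.18% of all named probe sets did so. The 4 lower ones were AJUBA, the kinase TAOK2, the tumour suppressor NF2 and the scaffold WWC1, with log2 changes of -0.20, -0.12, -0.07 and -0.09. The core kinase STK4, which activates LATS kinases, was at 8.39, 8.42 and 8.47 in miR-196b arrays, against 8.22, 8.34 and 8.30 in control arrays (log2), a log2 change of 0.14 (limma adjusted p = 0.561). FRMD6, a FERM-domain protein upstream of the cascade, had a log2 change of 0.15 (95% interval -0.02 to 0.32, limma adjusted p = 0.529). STK4 and FRMD6 were among the 5 higher ones without overlap. Neither LATS1 nor LATS2, the kinases that phosphorylate YAP and TAZ, had a probe set named here.

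FAT4, a giant cadherin whose fly counterpart acts upstream of Hippo, had the widest change of that list. It was at 5.11, 5.03 and 4.93 in miR-196b arrays, against 4.45, 4.38 and 4.19 in control arrays (log2). All miR-196b arrays were higher, with a log2 change of 0.69 (SE 0.09, 95% interval 0.46 to 0.91), or 1.61-fold (limma adjusted p = 0.144). The probe set lay in the dimmest 40%. It passed with a trended, robust prior (limma adjusted p = 0.0422), and its adjusted p ran from 0.0422 to 0.486 over the alternatives that kept it.

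**Figure D4:**
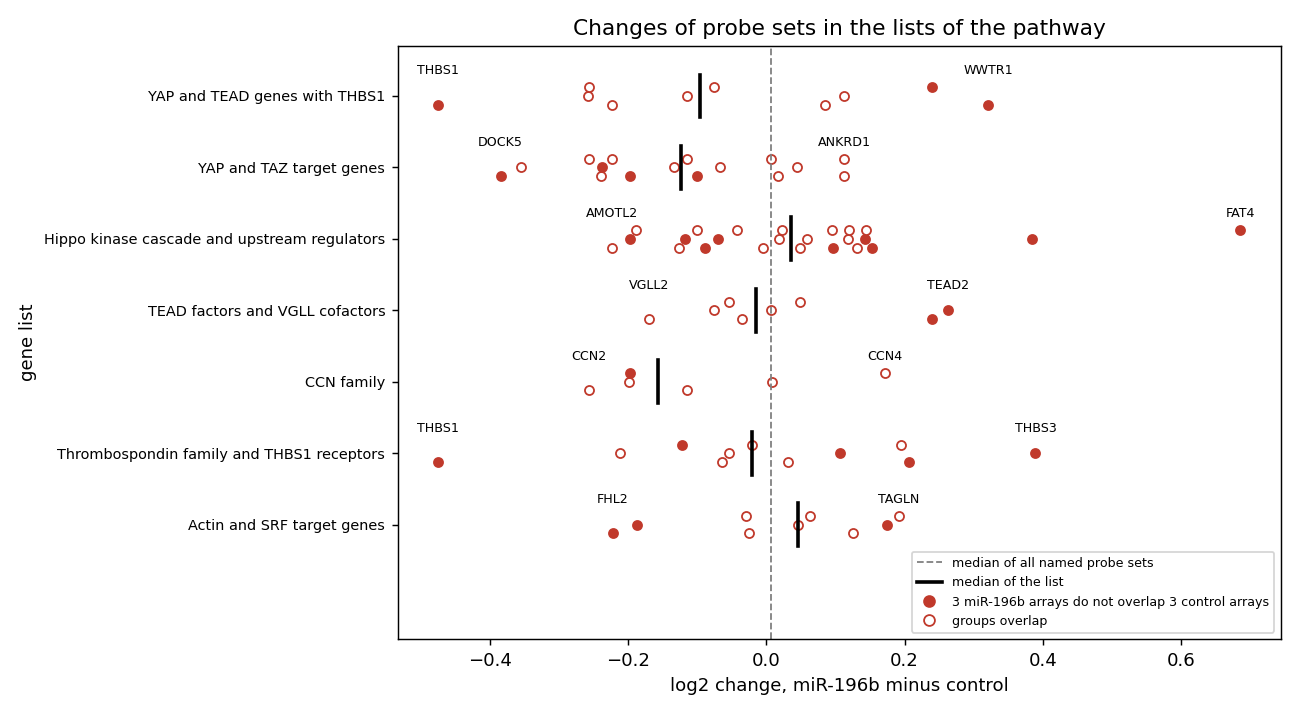
Log2 change, miR-196b minus control, of every measured probe set in the 7 gene lists (horizontal axis, 1 row per list); filled points are probe sets whose groups do not overlap, black bars are list medians and the dashed line is the median of all named probe sets (0.0069). The YAP and TAZ target genes have a median of -0.12 and the Hippo list one of 0.04, and FAT4 (0.69) and THBS1 (-0.48) lie at the ends.

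Among the thrombospondins, THBS3 went the other way from THBS1. It was at 5.70, 5.62 and 5.56 in miR-196b arrays, against 5.16, 5.20 and 5.35 in control arrays (log2). The groups did not overlap, and the log2 change was 0.39 (SE 0.08, 95% interval 0.19 to 0.59, limma adjusted p = 0.318). The 95% intervals of THBS1 and THBS3 lie on opposite sides of 0, and the difference between the genes was not tested. THBS3 was named for its small p. Probe sets of the thrombospondins THBS2, THBS4 and COMP lay in the dimmest 40%. Their log2 changes were 0.03, 0.19 and -0.12 (limma adjusted p = 0.957, 0.74 and 0.669).

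Receptors of thrombospondin-1 gave smaller changes. CD47, a surface receptor for its C-terminal part, was at 8.31, 8.38 and 8.40 in miR-196b arrays, against 8.21, 8.29 and 8.27 in control arrays (log2), a log2 change of 0.11 (95% interval -0.06 to 0.27, limma adjusted p = 0.644). CD36, the receptor for its type 1 repeats, lay in the dimmest 40% and had a log2 change of -0.21 (limma adjusted p = 0.572). LRP1, which takes the protein up from outside the cell, had a log2 change of 0.21 without overlap (limma adjusted p = 0.504). Of the 11 probe sets of thrombospondins and receptors 0 were called, 5 were higher and 6 lower, with a median of -0.02. The integrins of this list had no probe set named here.

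The CCN family beside CCN2 held CCN5, which lacks the C-terminal domain of its relatives. CCN5 was at 5.16, 5.22 and 5.25 in miR-196b arrays, against 5.40, 5.34 and 5.48 in control arrays (log2). The groups did not overlap, and the log2 change was -0.20 (95% interval -0.37 to -0.02, limma adjusted p = 0.471). CCN6 had a log2 change of -0.20, CCN4 of 0.17 and CCN3 of 0.0087, each with overlapping groups, and CCN4 and CCN6 lay in the dimmest 40%. CCN3 turned sign with a repeated quantile normalization (-0.0096). Of the 6 CCN probe sets 0 were called and 4 were lower.

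Actin and SRF target genes, which respond to cytoskeletal tension as YAP does, had 7 of 13 genes on the array with 9 probe sets. Of these 0 were called, 5 were higher and 4 lower, with a median of 0.05. FHL2, a LIM-domain cofactor, was at 7.04, 7.04 and 7.12 in miR-196b arrays, against 7.26, 7.31 and 7.30 in control arrays (log2). Its groups did not overlap, and the log2 change was -0.22 (95% interval -0.38 to -0.06, limma adjusted p = 0.407). VCL, which encodes the adhesion protein vinculin, had a log2 change of 0.17, and TPM2, a tropomyosin, of -0.19, both without overlap (limma adjusted p = 0.507 and 0.513). TAGLN had 0.19 and TPM1 0.12 and -0.03 at its 2 probe sets, the second in the dimmest 40%, all with overlapping groups.

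Likeness to THBS1 was measured as the root mean square difference between profiles over the 6 arrays, each centred on its own mean (log2). The 5 named probe sets closest to it were ITPKC, NSMCE1-DT, ACOT1, CABLES1 and FLJ33534, with differences of 0.0638, 0.0657, 0.0697, 0.0731 and 0.0765. All were lower in miR-196b arrays, which closeness to THBS1 entails, with log2 changes of -0.43, -0.38, -0.41, -0.44 and -0.37. CABLES1 alone of the 5 lay outside the dimmest 40%, and 0 of the 5 passed over all genes. The members closest to THBS1 were CCN2 at probe set 17023646 (0.188) and AMOTL2 (0.189), at places 1010 and 1049. CCN2 at probe set 17118180 (0.227), TEAD4 (0.235) and YAP1 at probe set 16743628 (0.244) came next. YAP1 at probe set 16730503 (0.292), TEAD1 (0.363), ANKRD1 (0.376) and WWTR1 (0.412) lay farther off.

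The promoter letters shown above were set beside the changes, and a link between them was not tested. CCN2 with 3 TEAD matches and ANKRD1 with 2 had intervals that included 0, while THBS1 with 1 match had the largest absolute change of the members and WWTR1 with 0 had the next largest. Of the 20 listed YAP and TAZ target genes with a promoter entry, 10 held at least 1 match (50%), and of the 11 of these measured on the array 7 did (63.6%), beside 14.3% of all 27305 genes with an entry. Across 11549 named probe sets with a promoter entry, the median log2 change was 0.0083 with 0 matches (9991 probe sets), 0.0056 with 1 (1412) and 0.0161 with 2 or more (146). At an unadjusted p below 0.05, 3.79%, 4.32% and 0.685% of these classes were lower and 5.88%, 5.31% and 4.79% higher in miR-196b arrays. A gene with more than 1 start was classed by its window with the most matches. In the class of 146 probe sets the shares rest on few probe sets. The shares describe the letters and the changes side by side and were not tested.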

How the data were processed

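Total RNA of HCT116 cells was measured on 6 whole-transcript arrays, 3 miR-196b and 3 control. The authors deposited 1 log2 value per probe set and array. Per the submitters' processing notes, Partek 6.6 and RMA were used, with their settings not given in the sources used here. RMA ends in log2 values, from which the base was inferred, and normalizes quantiles between arrays. The genome build is likewise not given. Names came from the platform annotation, with symbols brought to GRCh38.p14 by gene identifier. Of 53617 probe sets, 16098 had 1 symbol and are the named ones. The other 37519 had no symbol or more than 1 and entered only the fit of all probe sets.

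The deposited log2 values were fitted in R 4.3.3 with limma 3.58.1 (lmFit and eBayes, no trend, not robust), with 4 residual and 3.23 prior degrees of freedom. The fit was tested on simulated data. Detection calls were not used, and probe sets in the dimmest 40% by mean are named as such. Promoter letters were searched in Python 3.11.15. The number of arrays limits the precision.

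Members, gene lists and tests were chosen with earlier results of these data known. Genes named were all members, the TEAD, LATS, AMOT and CCN paralogues, and up to 5 genes of each list by smallest p. Also named were the 5 probe sets most like THBS1 and the check of the labels. THBS3 entered by smallest p and not as a paralogue. VGLL1, VGLL3, THBS2, THBS4, COMP, TAOK2, NF2 and WWC1 were named after their values were seen. Alternatives were a filter on dim probe sets, a trended and robust prior, median centring, repeated quantile normalization, a replicate block, each array left out, all probe sets, and no variance moderation. No scan date was used, so no batch was tested.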

Additional observations from a re-analysis of the deposited data

Results flagged for a closer look

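Probe sets with no symbol or with several symbols were not named and entered none of the comparisons of the YAP and TEAD genes. When limma was run on the whole array (53617 probe sets), 2 of the unnamed probe sets passed the threshold with a higher level in miR-196b arrays than in control arrays. Unnamed probe sets with a lower level are not covered by this count. Whether the 2 had no symbol or several was not examined, and they were not assigned to a member or to any other gene here.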

How the results depend on the processing

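THBS1 kept its direction and stayed above the threshold under 12 of 13 alternatives, and passed with a trended, robust variance prior (-0.48, limma adjusted p = 0.0233); the cause was not tested. Under that prior 1 member, 1 YAP and TAZ target gene (DOCK5) and 1 Hippo gene (FAT4) were called, against 0 of each otherwise. Without any 1 array the log2 change of THBS1 was -0.52 to -0.43 (limma adjusted p = 0.358 to 0.548), and 0 members, 0 target genes and 0 Hippo genes were called. The sign turned in 5 other named probe sets, none of them called: with a repeated quantile normalization TEAD3 was at -0.0063 and CCN3 at -0.0096, and without 1 array each TEAD3 ranged from -0.0352 to 0.0502, CCN3 from -0.053 to 0.10, TPM1 at probe set 16810326 from -0.16 to 0.0808, AMOTL1 at probe set 16743414 from -0.22 to 0.14 and TAGLN from -0.0117 to 0.35. ANKRD1 ranged from 1e-04 to 0.33. Over all named probe sets, 9 were called, 22 without the dimmest 40%, 91 with the trended prior, 5 without moderation, 2 to 3 with an array left out and 1 with the replicate block. Under the block THBS1 had a limma adjusted p of 0.485 and 0 members, target genes or Hippo genes were called. The numbers were not taken as pairs, because the labels do not tie them to a shared culture or day. Deviations of arrays with the same number correlated at 0.0085 to 0.0369, and of arrays with different numbers at -0.0521 to 0.0198. Detection above background was not tested, which limits ANKRD1 and the dim probe sets of CCN2 and YAP1.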
